A study of Homo sapiens with 6 samples.

Results

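The genes of the NF-κB transcription factor subunits and of proteins listed as its feedback inhibitors were followed in U937 cells given ethacrynic acid. There were 10 of them among the 61806 gene IDs of the count table, found by matching each Ensembl ID to its symbol, and each symbol matched 1 ID. They were 5 subunit genes (NFKB1, NFKB2, REL, RELA and RELB) and 5 genes listed as inhibitors (NFKBIA, NFKBIE, TNFAIP3, TNIP1 and BIRC3). U937 is an established human line of monocytic character, which the labels list as AML. One group of 3 libraries came from U937 cells given ethacrynic acid, and the other group of 3 came from U937 cells given the vehicle DMSO and labelled control. Titles place all 6 libraries at day 3, the treatment note gives 2 days of exposure to ethacrynic acid, and no label used here gives its dose. Ethacrynic acid is a loop diuretic that reacts with thiols, and the study asked what it does to the transcripts of AML cells in the course of differentiation. Whether the replicates were grown as separate cultures is not stated. The p-values below therefore weigh a group difference only against the spread between these libraries, and part of that spread may be technical.

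NF-κB is a family of dimers built from Rel proteins. In resting cells IκB proteins hold the dimers in the cytoplasm. Signals from cytokine and Toll-like receptors activate the IKK kinases, IκB is phosphorylated and destroyed, and the freed dimers enter the nucleus and bind κB sites. Among the genes they switch on are those of their own inhibitors, IκBα (NFKBIA) and A20 (TNFAIP3), which end the response in a negative feedback loop. Transcripts of these feedback genes are therefore widely read as reporters of the pathway's activity in monocytes and macrophages.

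Promoter sequence is shown first, since κB sites in such promoters are the known basis of the feedback. RefSeq promoter windows on GRCh38.p14, from 250 bases before to 50 bases after a gene start, were at hand for 8 of the 10 genes, in 13 windows, and not for RELB and NFKBIE. A κB motif, spelled as GGG, any 2 bases and then TTTCC and searched on both strands, was present in at least 1 window of 7 of these 8 genes, RELA being the exception. Among all 27305 genes with a window, 2.33% had the motif (635 genes). The genes were picked as known targets or parts of this pathway, so the count describes them and is not a test. In the upstream sequence of NFKBIA, given here in full because IκBα is the best known feedback gene, the capitals mark the motif, which lies on the reverse strand and starts 81 bases before the gene start.
NFKBIA (chr14:35404750-35404999, minus strand): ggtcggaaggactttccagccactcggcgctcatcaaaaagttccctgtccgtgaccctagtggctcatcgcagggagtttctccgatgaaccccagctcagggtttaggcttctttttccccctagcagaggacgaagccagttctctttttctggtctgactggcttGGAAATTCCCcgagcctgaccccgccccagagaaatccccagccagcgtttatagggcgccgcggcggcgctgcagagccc

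Stretches of 30 bases around the motif in the other 6 genes follow, with the motif in capitals, to show that the same core recurs with different flanks and in both orientations. In NFKB1, NFKB2 and TNIP1 it reads forward, and in REL, TNFAIP3 and BIRC3 it is on the reverse strand. TNFAIP3 carries 2 motifs side by side. The stretch of BIRC3 lies outside the annotated exons of its gene in GENCODE 29, that of NFKB1 reaches 1 base into an exon, past the motif, and the others overlap exons further.
NFKB1 (chr4:102501300-102501329, plus strand): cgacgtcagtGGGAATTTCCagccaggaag
NFKB2 (chr10:102394490-102394519, plus strand): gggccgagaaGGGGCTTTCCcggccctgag
NFKB2, another start (chr10:102395674-102395703, plus strand): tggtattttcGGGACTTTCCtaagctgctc
REL (chr2:60881518-60881547, plus strand): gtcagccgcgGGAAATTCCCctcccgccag
TNFAIP3 (chr6:137867188-137867217, plus strand): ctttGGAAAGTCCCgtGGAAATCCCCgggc
TNIP1 (chr5:151081057-151081086, minus strand): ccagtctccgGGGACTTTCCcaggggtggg
BIRC3 (chr11:102317275-102317304, plus strand): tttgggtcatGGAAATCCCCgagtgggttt
The motif was found in 6 of 31 other NF-κB target genes with a window (19.4%), in 4 of 13 other inhibitors (30.8%) and in 0 of 22 genes of the IKK complex and upstream signalling. With a looser spelling (GGG, any 3 bases, TTCC) the count stayed at 7 of 8, while the share over all genes was 7.83%. The other lists then held it in 11 of 31 target genes (35.5%), 6 of 13 other inhibitors (46.2%) and 1 of 22 IKK and upstream genes. A match is a string of letters and not a measured binding site, and no match says only that these letters are not in the window.

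None of the 10 genes passed the test between ethacrynic acid and DMSO (edgeR's quasi-likelihood test over 19611 genes, Benjamini-Hochberg adjusted p under 0.05), and their adjusted p values lay between 0.386 and 0.900. Over all genes tested 0.265% were called. DESeq2 called none of the 10 either (3.13% of all genes called), nor did limma-voom (0.265%), nor a fit with the replicate number as an added term (1.81% called, 1.26% higher). At an unadjusted p under 0.05 there were 2 of the 10, TNFAIP3 and NFKBIE, both higher, where 11.1% of all genes reached that level and 6.54% did so as higher. The median log2 fold change of the 10 was 0.21, with 7 positive and 3 negative, and the median of all genes tested was -0.00035, with 49.9% positive. Without ethacrynic acid replicate 1 the median of the 10 was 0.11, and 9 were positive. All 10 passed the filter on low counts. Totals per library were 57516146 to 66677543 counts with ethacrynic acid and 66907158 to 68128543 counts with DMSO. Levels below are CPM, counts scaled to 1e+06 of the library size after TMM, and each log2 fold change is ethacrynic acid over DMSO with its SE, from the edgeR fit. Gene positions are those of GENCODE 29 on GRCh38.

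**Figure D1:**
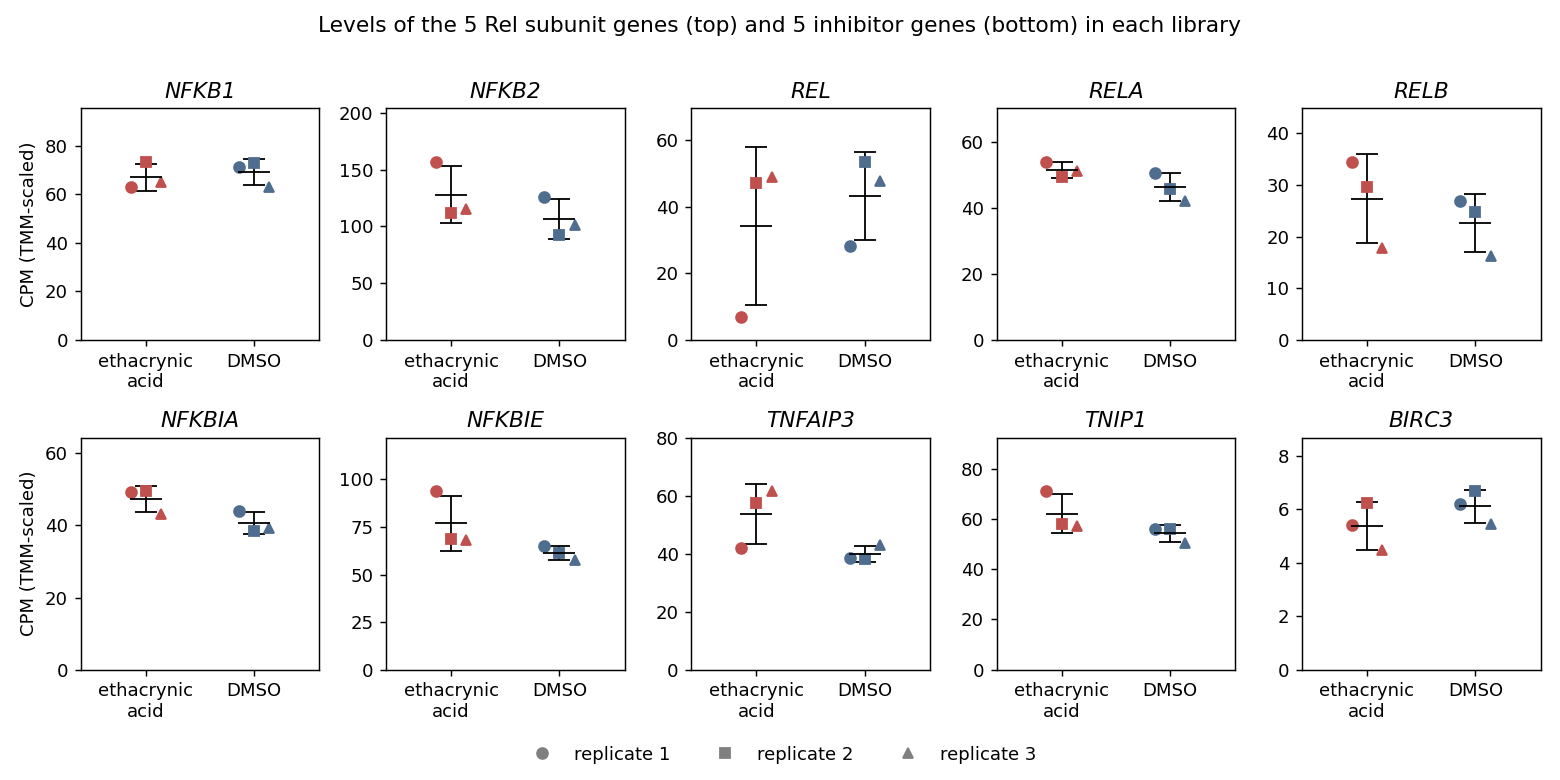
CPM (TMM-scaled, linear axis from 0) of each gene in the 3 ethacrynic acid libraries (left in each panel) and the 3 DMSO libraries (right). Marker shapes are replicate numbers, and bars give the mean ± SD of 3. Only NFKBIE and TNIP1 have groups that do not overlap, and REL in ethacrynic acid replicate 1 sits at 6.98 CPM.

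All 12 monocytic markers listed for U937 cells were present, with summed levels of 5190 to 6913 CPM in ethacrynic acid and 4567 to 5127 CPM in DMSO libraries. The sums weigh abundant genes most, such as LYZ (means of 656 CPM with ethacrynic acid and 211 CPM with DMSO). Of the 12, 7 had a positive and 5 a negative log2 fold change, and none was called (edgeR, adjusted p under 0.05). T cell, B cell, erythroid and fibroblast markers summed to at most 12.7 CPM per list in any library. At 0 in all 6 libraries were 1 of 3 erythroid and 2 of 3 fibroblast markers. The 4 epithelial markers (EPCAM, KRT8, KRT18 and CDH1) were together highest in ethacrynic acid replicate 3, where they summed to 367 CPM, against 33.6 and 40.1 CPM in the other ethacrynic acid libraries and 25.4 to 40.1 CPM in DMSO. Their part in the results was not tested. That library also scored 93.9 on principal component 1, against -36.9 to -10.4 for the other 5. On principal component 2 the lowest score was that of ethacrynic acid replicate 1, at -61.7. The other ethacrynic acid libraries scored -22.5 and -12.6 there, and the DMSO libraries 20.4 to 50.9. Without ethacrynic acid replicate 3 the median log2 fold change of the 10 genes was 0.26, with 7 positive and none called. In bulk RNA, fewer cells of a kind and less RNA per cell cannot be told apart.

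Among the feedback inhibitors, IκBα transcripts were at 49.2, 49.5 and 43.2 CPM with ethacrynic acid and at 44.1, 38.6 and 39.4 CPM with DMSO. Ethacrynic acid replicate 3 was below the highest DMSO library, so the groups overlapped slightly. NFKBIA (ENSG00000100906, chromosome 14, 35401511 to 35404749) had a log2 fold change of 0.22 ± 0.10 (SE; 95% interval -0.02 to 0.45, adjusted p = 0.481 by edgeR). The upper end of that interval is a 1.37-fold higher level. With each library left out in turn the value for NFKBIA lay between 0.18 and 0.28.

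TNFAIP3 encodes A20, a ubiquitin-editing enzyme that shuts down signalling from TNF and Toll-like receptors. Its levels were 41.9, 57.7 and 61.6 CPM with ethacrynic acid and 38.5, 38.3 and 43.1 CPM with DMSO. Replicates 2 and 3 of ethacrynic acid lay above every DMSO library, while replicate 1 lay within the DMSO range. The log2 fold change of TNFAIP3 (ENSG00000118503, chromosome 6, 137867188 to 137883312) was 0.43 ± 0.15 (SE; 95% interval 0.08 to 0.77), the highest of the 10, with an unadjusted p of 0.022 and an adjusted p of 0.386 (edgeR). Without ethacrynic acid replicate 1 it was 0.59 (adjusted p = 0.075), and without replicate 3, the library with the highest sum of epithelial markers, it was 0.31. Counts of the antisense gene WAKMAR2, whose exons overlap those of TNFAIP3 on the other strand, came to 1.92% to 4.20% of the TNFAIP3 counts, and the strand setting of the counting is not stated.

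NFKBIE (ENSG00000146232, chromosome 6, 44258166 to 44265788) encodes IκBε, an inhibitor that mainly holds dimers of RELA and REL. It was at 93.7, 68.4 and 68.4 CPM with ethacrynic acid and at 65.2, 61.3 and 57.4 CPM with DMSO. Every ethacrynic acid library was above every DMSO library, with replicate 1 far above the others. The log2 fold change was 0.33 ± 0.14 (SE; 95% interval 0.01 to 0.65), with an unadjusted p of 0.047 and an adjusted p of 0.443 (edgeR). It was 0.17 without ethacrynic acid replicate 1, and between 0.28 and 0.40 with any other library left out.

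TNIP1 (ENSG00000145901, chromosome 5, 151029945 to 151093577) encodes ABIN-1, a ubiquitin-binding partner of A20. Levels were 70.9, 57.9 and 57.1 CPM with ethacrynic acid, against 56.1, 56.0 and 50.4 CPM with DMSO. Its groups did not overlap either at these TMM-scaled levels, and the margin between them was about 1 CPM (57.1 against 56.1). Scaled by total counts instead, ethacrynic acid replicate 2 lay below DMSO replicate 1, so the groups overlapped, and the log2 fold change was 0.11. The log2 fold change was 0.19 ± 0.11 (SE; 95% interval -0.06 to 0.45, adjusted p = 0.544 by edgeR), and it was 0.09 without ethacrynic acid replicate 1. NFKBIE and TNIP1 were the 2 of the 10 genes with every ethacrynic acid library higher, as were 8.64% of all genes tested, and none of the 10 had every ethacrynic acid library lower, against 8.99% of all genes.

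BIRC3 (ENSG00000023445, chromosome 11, 102317450 to 102339403) encodes cIAP2, a ubiquitin ligase of TNF receptor complexes that also restrains the non-canonical pathway. It was the least abundant of the 10, with 288 to 351 counts per ethacrynic acid library and 391 to 461 per DMSO library. Levels were 5.40, 6.25 and 4.48 CPM with ethacrynic acid and 6.21, 6.68 and 5.45 CPM with DMSO. The groups overlapped, and the log2 fold change was negative (-0.19 ± 0.19 SE, 95% interval -0.63 to 0.26, adjusted p = 0.750 by edgeR). Of the 5 genes listed as inhibitors it is the 1 whose mean was lower with ethacrynic acid. The value for BIRC3 was -0.07 without ethacrynic acid replicate 3, -0.12 without DMSO replicate 2 and -0.31 without ethacrynic acid replicate 2.

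Among the subunits, NFKB1 (ENSG00000109320, chromosome 4, 102501329 to 102617302) encodes p105, the precursor of p50. It was at 62.9, 73.4 and 65.0 CPM with ethacrynic acid and at 71.4, 72.9 and 63.2 CPM with DMSO. The groups covered nearly the same range, and the log2 fold change of -0.04 ± 0.10 (SE; 95% interval -0.28 to 0.19, adjusted p = 0.900 by edgeR) was slightly positive without ethacrynic acid replicate 1 (0.0086) and between -0.11 and -0.0071 with any other library left out. NFKB2 (ENSG00000077150, chromosome 10, 102394110 to 102402529) encodes p100, the precursor of p52 and the central substrate of the non-canonical pathway. Its levels were 157, 112 and 115 CPM with ethacrynic acid and 126, 92.1 and 102 CPM with DMSO. Ethacrynic acid replicate 1 was the highest library and DMSO replicate 1 the next, so the groups overlapped (log2 fold change 0.27 ± 0.17 SE, 95% interval -0.12 to 0.65, adjusted p = 0.579 by edgeR). The value for NFKB2 was 0.10 without ethacrynic acid replicate 1, 0.17 without DMSO replicate 2 and 0.40 without DMSO replicate 1.

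RELA (ENSG00000173039, chromosome 11, 65653596 to 65663094) encodes p65, the main activating subunit of the canonical pathway. It was at 54.0, 49.5 and 51.1 CPM with ethacrynic acid and at 50.8, 45.8 and 42.2 CPM with DMSO. Of the subunits with a positive value RELA had the smallest SE, at 0.16 ± 0.10 (SE; 95% interval -0.07 to 0.39, adjusted p = 0.588 by edgeR), and the groups overlapped. The value for RELA was 0.09 without DMSO replicate 3 and 0.08 with total count scaling. RELB (ENSG00000104856, chromosome 19, 45001430 to 45038198), the activating partner of p52, was at 34.5, 29.7 and 17.8 CPM with ethacrynic acid and at 26.9, 24.8 and 16.3 CPM with DMSO. In both groups replicate 3 was the lowest, and the spread within a group exceeded the difference between groups (log2 fold change 0.27 ± 0.27 SE, 95% interval -0.35 to 0.89, adjusted p = 0.733 by edgeR). The value for RELB was 0.49 without ethacrynic acid replicate 3, 0.41 without DMSO replicate 1, and 0.07 without either ethacrynic acid replicate 1 or DMSO replicate 3.

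REL encodes c-Rel, the subunit best known from lymphocytes and myeloid cells, and it was the most variable of the 10. Levels were 6.98, 47.2 and 48.8 CPM with ethacrynic acid and 28.3, 53.5 and 47.7 CPM with DMSO. One library of each group, replicate 1 in both, was far below the others. A second annotated RNA, ENSG00000267520 (chromosome 2, 60925909 to 60931610), lies on the same strand over the 3′ end of REL (ENSG00000162924, chromosome 2, 60881521 to 60931610). It was assigned 1602, 160 and 418 counts with ethacrynic acid and 884, 240 and 707 counts with DMSO, and was highest in the 2 libraries in which REL was lowest. REL held 21.0% of the counts of both IDs together in ethacrynic acid replicate 1, and between 68.5% and 94.3% in the other 5 libraries.

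**Figure D2:**
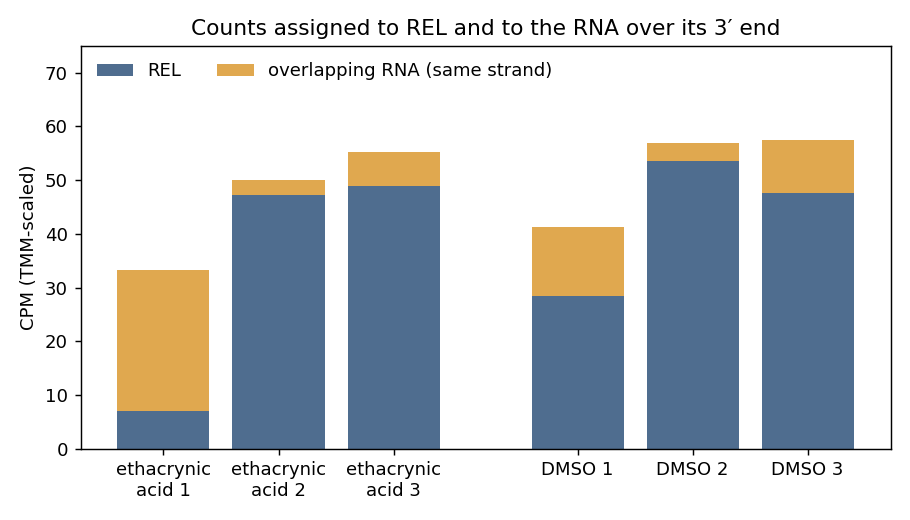
CPM (TMM-scaled) assigned to REL (blue) and to the same-strand RNA over its 3′ end (yellow, stacked) in the 3 ethacrynic acid libraries (left) and the 3 DMSO libraries (right). The sum spans 33.2 to 55.3 CPM with ethacrynic acid and 41.3 to 57.5 CPM with DMSO, a narrower range than that of REL alone.

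Summed over both IDs, the locus was at 33.2, 50.1 and 55.3 CPM with ethacrynic acid and at 41.3, 56.97 and 57.5 CPM with DMSO. Replicate 1 remained the lowest in each group, but by far less than in REL alone. The log2 fold change was -0.33 ± 0.60 for REL and -0.17 ± 0.21 for the sum (SE; adjusted p = 0.869 and 0.791 by edgeR), and the 95% interval narrowed to -0.65 to 0.31 with the sum, against -1.73 to 1.07 for REL alone. Without ethacrynic acid replicate 1 both values were positive (0.16 for REL, 0.028 for the sum). With any other library left out REL lay between -0.67 and -0.14 and the sum between -0.32 and -0.09, both lowest without ethacrynic acid replicate 3. How reads were divided between the IDs is not given in the sources used here, so the level of REL by itself is uncertain. For RELA, the divergent RNA RELA-DT overlaps on the other strand and was assigned 3.07% to 5.50% of the RELA counts. Apart from REL, RELA and TNFAIP3, none of the 10 genes shares exons with another gene in GENCODE 29, and none of the 10 has a named pseudogene there.

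Levels between the genes were compared per length, as CPM per kb of annotated exons. With DMSO, NFKB2 (23.8 ± 3.89) and NFKBIE (23.8 ± 1.51) led and could not be told apart, followed by NFKBIA at 17.1 ± 1.25 (SD, n = 3 each). NFKB1 came next at 11.1 ± 0.836 CPM per kb. TNIP1 at 9.35, RELA at 8.47, TNFAIP3 at 7.92 and RELB at 7.47 CPM per kb formed a run in which each gene overlapped its neighbour in the order. REL at 3.28 and BIRC3 at 0.813 CPM per kb were separate from the rest and from each other. With ethacrynic acid 6 of the 10 genes held the same place in the order: NFKBIE (29.8 ± 5.67) and NFKB2 (28.6 ± 5.59) changed places within their spread, and TNFAIP3 (10.6 ± 2.07) moved past RELA (9.43 ± 0.420). Inhibitor transcripts for IκBε and IκBα were thus more abundant per length than those of RELA in both groups, and BIRC3 had the lowest mean in both. In ethacrynic acid replicate 1, however, REL (0.530 CPM per kb) was below BIRC3 (0.719 CPM per kb). With the longest annotated transcript as the length, NFKBIA came before NFKBIE in DMSO, and RELB before TNFAIP3, and TNIP1 passed NFKB1.

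**Figure D3:**
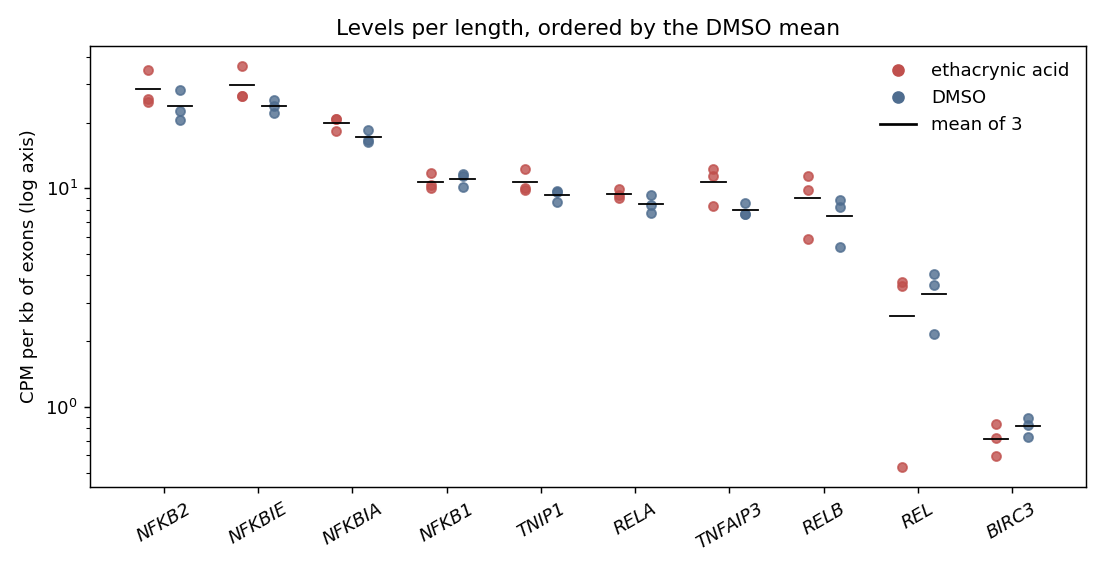
CPM per kb of annotated exons (log axis) for each gene, ordered by its DMSO mean, with ethacrynic acid libraries to the left of the DMSO libraries for each gene. Points are libraries and short lines are means of 3. With ethacrynic acid, NFKB2 averages 28.6 and BIRC3 0.715 CPM per kb.

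The genes did not move as one set across libraries. Relative to the mean of the DMSO libraries on the log2 scale, ethacrynic acid replicate 1 was highest for NFKBIE (0.61), NFKB2 (0.57), RELB (0.64), TNIP1 (0.39) and RELA (0.23). NFKBIA was at 0.28 both there and in ethacrynic acid replicate 2. In ethacrynic acid replicate 1 TNFAIP3 was nearly level (0.07), and NFKB1 (-0.13), BIRC3 (-0.17) and REL (-2.57) were below the DMSO mean. In replicate 3, by contrast, TNFAIP3 was at 0.63, NFKBIE at 0.16, TNIP1 at 0.08 and RELB at -0.32. Likeness was measured as the root mean square difference of centred log2 CPM over the 6 libraries, among 11127 genes with a mean of at least 5 CPM. The genes most like NFKBIA were NDEL1 (0.030), ZNF628 (0.035) and CMC2 (0.036), and RELA was the nearest of the 10 at rank 310. Those most like TNFAIP3 were IGF2R (0.074), TVP23B (0.079) and GK (0.085), and its nearest among the 10 was NFKBIA at rank 1610. Close profiles over 6 libraries are a description only.

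The other genes of the pathway were read from the same fit. Of 14 other inhibitors and atypical IκB proteins, none was called (edgeR, adjusted p under 0.05), against 0.265% of all genes, and 1 passed at an unadjusted p under 0.05, against 11.1% of all genes. Their median log2 fold change was 0.09, and it was 0.0027 with total count scaling and 0.18 without ethacrynic acid replicate 3. TNIP3 passed the filter only through the ethacrynic acid libraries. ZC3H12A, whose product Regnase-1 degrades cytokine mRNAs, was at 36.0, 39.7 and 36.6 CPM with ethacrynic acid and at 25.7, 21.6 and 22.0 CPM with DMSO. Its groups stood well apart, with a log2 fold change of 0.70 ± 0.11 (SE) and an adjusted p of 0.072 by edgeR, and DESeq2 called it (adjusted p = 1.8e-06). NFKBIZ, which encodes the nuclear protein IκBζ, was at 10.2, 16.6 and 13.8 CPM with ethacrynic acid and 7.33, 11.1 and 10.2 CPM with DMSO (0.50 ± 0.22 SE, adjusted p = 0.460 by edgeR).

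Of 26 genes of the IKK complex and upstream signalling, none was called by edgeR (0.265% of all genes called) or by DESeq2 (3.13%). At an unadjusted p under 0.05 there were 3 (2 higher, 1 lower), a share close to the 11.1% of all genes. Their median log2 fold change was 0.01, with 14 positive and 12 negative, and with total count scaling it was -0.07, with 10 positive. RNF31, the catalytic subunit of the linear ubiquitin ligase, had the smallest p, at 43.0, 36.8 and 37.0 CPM with ethacrynic acid and 31.7, 25.9 and 30.5 CPM with DMSO (log2 fold change 0.41 ± 0.12 SE, adjusted p = 0.311 by edgeR). IRAK1, a kinase below Toll-like and interleukin-1 receptors, was at 846, 729 and 577 CPM with ethacrynic acid and 564, 572 and 451 CPM with DMSO (0.44 ± 0.16 SE, adjusted p = 0.400 by edgeR). Exons of RNF31 overlap other genes on both strands, so its counts are uncertain.

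Other known NF-κB target genes differed more. Of 37, 33 passed the filter, and 3 of these rose and none fell (edgeR, adjusted p under 0.05), that is 9.09% called higher against 0.229% of all genes tested. Their median log2 fold change was 0.58, with 29 positive and 4 negative. In 21 of the 33 every ethacrynic acid library was above every DMSO library, against 8.64% of all genes. The list was chosen with earlier results of these data known, so these shares describe it and are not a test. CXCL3 and CCL20 passed the filter only through the ethacrynic acid libraries and had to come out higher. Among the 28 with a mean of at least 1 CPM over the 6 libraries, 18 had every ethacrynic acid library higher. Of the 14328 genes at that level 9.59% did so, and the median of the 28 was 0.46. That mean includes the ethacrynic acid libraries: CCL4 averaged 2.14 CPM with ethacrynic acid and 0.484 CPM with DMSO. It thus reached the level only through the ethacrynic acid libraries. CXCL1, IL1A, IL6 and CD40 were too low to test, at no more than 0.570 CPM in any library.

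**Figure D4:**
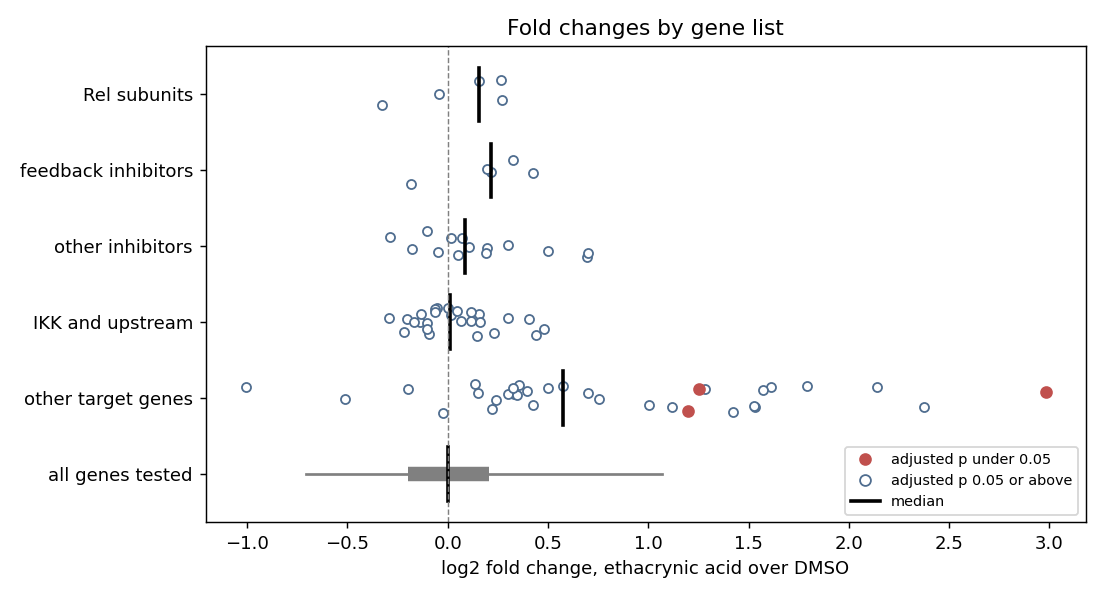
Log2 fold changes (ethacrynic acid over DMSO) of every tested gene in 5 lists, with called genes filled in red, black bars at the medians and, for all genes tested, a grey box from the 25th to the 75th percentile and a line from the 5th to the 95th. Medians are 0.16 for Rel subunits, 0.22 for feedback inhibitors, 0.09 for other inhibitors, 0.01 for IKK and upstream genes and 0.58 for other target genes. The lists were chosen with earlier results of these data known.

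CXCL8, the neutrophil chemokine interleukin-8, was at 20.3, 46.4 and 32.0 CPM with ethacrynic acid and at 3.32, 5.00 and 4.18 CPM with DMSO (log2 fold change 2.98 ± 0.31 SE, adjusted p = 0.015 by edgeR). BCL2A1, an anti-apoptotic relative of BCL2, was at 66.9, 55.0 and 46.1 CPM with ethacrynic acid and at 22.8, 23.3 and 24.3 CPM with DMSO (1.25 ± 0.14 SE, adjusted p = 0.019 by edgeR). CCL3, the macrophage chemokine MIP-1α, was at 13.1, 10.6 and 10.9 CPM with ethacrynic acid and at 4.88, 4.85 and 5.30 CPM with DMSO (1.20 ± 0.16 SE, adjusted p = 0.035 by edgeR). In all 3 genes every ethacrynic acid library was above every DMSO library. CCL3 has near-identical copies in the genome and an antisense gene over its exons, and its counts are uncertain for that reason. All 3 calls ended when any 1 of the DMSO libraries or ethacrynic acid replicate 2 was left out, with adjusted p values of up to 0.141 for CXCL8, 0.143 for BCL2A1 and 0.211 for CCL3, and that of CCL3 also ended without replicate 1 (adjusted p = 0.066). The log2 fold changes with each library left out stayed between 2.65 and 3.24 for CXCL8, 1.11 and 1.37 for BCL2A1, and 1.11 and 1.25 for CCL3. With no filter on low counts the adjusted p values were 0.053 for CXCL8, 0.065 for BCL2A1 and 0.095 for CCL3. Without ethacrynic acid replicate 3, the library with the highest sum of epithelial markers, 6 of the target genes were called higher. The calls over all genes also grew, to 120 higher and 28 lower, against 45 higher and 7 lower with all 6 libraries.

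SOD2, CCL4 and MMP9 are given here as chosen after their values were seen. The mitochondrial superoxide dismutase gene SOD2 was at 466, 675 and 428 CPM with ethacrynic acid and at 259, 306 and 217 CPM with DMSO, groups that did not overlap (log2 fold change 1.00 ± 0.20 SE, adjusted p = 0.132 by edgeR). Its ID carries that name in GENCODE 29, where another ID of the same name and the gene WTAP overlap it, so its counts are uncertain. The chemokine gene CCL4 was at 2.73, 1.87 and 1.82 CPM with ethacrynic acid and 0.544, 0.391 and 0.516 CPM with DMSO (2.14 ± 0.32 SE, adjusted p = 0.055 by edgeR). The gelatinase gene MMP9, which has an antisense gene over its exons, was at 13.97, 9.15 and 8.11 CPM with ethacrynic acid and 3.78, 4.61 and 3.26 CPM with DMSO (1.42 ± 0.25 SE, adjusted p = 0.097 by edgeR). DESeq2 called all 3 of these as higher, and 10 of the 33 target genes in all, against 2.05% of all genes. With each library left out, the adjusted p by edgeR ran from 0.040 to 0.620 for SOD2. It ran from 0.024 to 0.293 for CCL4 and from 0.028 to 0.485 for MMP9.

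**Figure D5:**
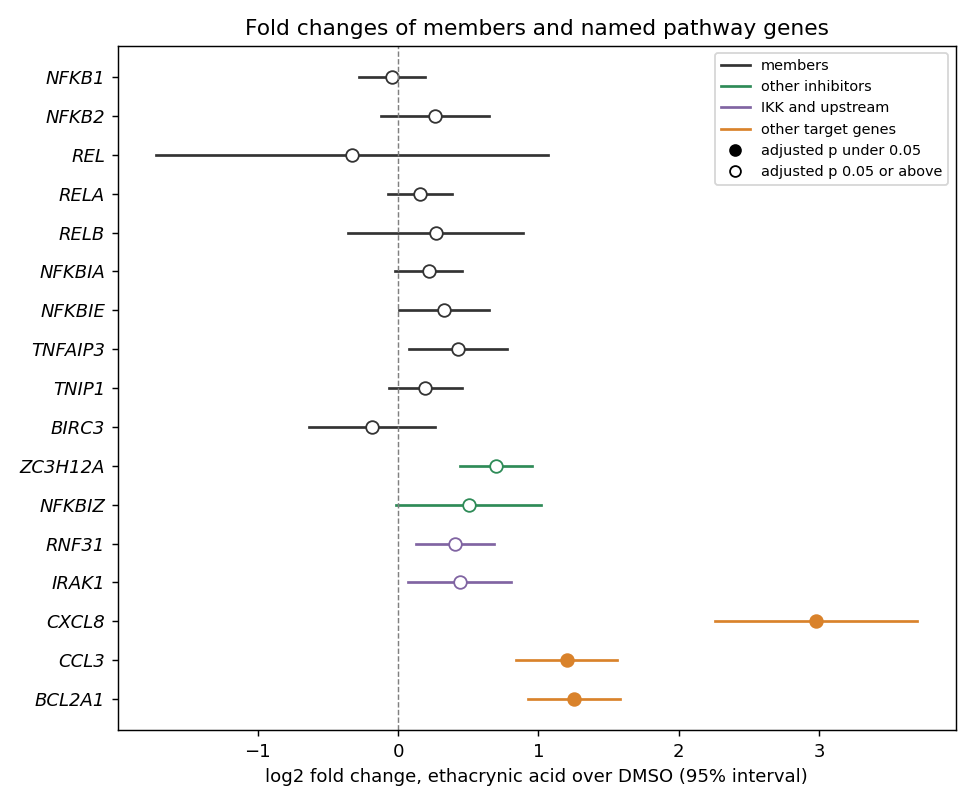
Log2 fold changes (ethacrynic acid over DMSO) with 95% intervals from the edgeR fit, for the 10 genes and the named genes of 3 other lists, filled where the adjusted p was under 0.05. The 10 genes lie between -0.33 and 0.43, and the 3 filled points, CXCL8, CCL3 and BCL2A1, lie between 1.20 and 2.98.

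Side by side, the intervals of the feedback inhibitors and of the called target genes do not meet for CXCL8, CCL3 and BCL2A1: the highest upper bound among the 5 inhibitors was 0.77 (TNFAIP3), and the lowest lower bound among the 3 was 0.84 (CCL3). The 3 were picked by their own test, so this is a description and the difference between the lists was not tested.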

How the data were processed

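The authors deposited whole-number counts per Ensembl gene ID for 6 libraries, not scaled between them. Per the submitters' processing notes, the tools were edgeR, HISAT2, fastp and StringTie 1.3.4d and the build GRCh38, with no role or order. Annotation release, counting rule and strand setting: not given in the sources used here. In each library more genes had a count of 4 (1213 to 1332) than of 3 (651 to 762) or 5 (393 to 466), so 1 count may not be 1 molecule, and totals are not a measure of precision. No library was a copy of another: the chi-square over its degrees of freedom was 23.9 to 116 for pairs within a group, which checks for duplicates only.

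Libraries were grouped by their titles. Symbols were matched for 61757 of 61806 IDs, and SOD2 through GENCODE 29, which also gave coordinates and exon lengths on GRCh38. Low genes were removed by filterByExpr (10 counts per library as minimum, 15 in total), libraries were scaled by TMM and genes were tested with edgeR 4.0.16 in R 4.3.3 (quasi-likelihood, group as the only term). The SE was derived from the log2 fold change and its F statistic, and 95% intervals from the SE. The motif search was checked on a made sequence before use. After the main fit, the test was also run on counts simulated from the DMSO means and the spread of that fit. DESeq2 1.42.0 and limma-voom (limma 3.58.1) were alternatives, beside other scalings and filters, counts divided by 4, the replicate number as a term, other thresholds and each library left out. The sum of REL with its overlapping RNA was added after seeing the data. Named were all 10 members, up to 6 called genes of each other list by smallest p, or its 2 genes of smallest p where none was called, and the 3 genes most like NFKBIA and TNFAIP3. The members and lists were chosen with earlier results of these data known. Figures were drawn with matplotlib 3.10.9.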

Additional observations from a re-analysis of the deposited data

How the results depend on the processing

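None of the 10 genes was called in either direction under any alternative run. The thresholds of 0.01 and 0.1 were applied to the fit of all 6 libraries and the threshold of 0.05 to every other fit, and the lowest adjusted p was 0.075 (TNFAIP3 without ethacrynic acid replicate 1). Of the 10, 8 kept their direction throughout. The other two turned without ethacrynic acid replicate 1, and the cause was not tested. With each library left out NFKB1 ranged from -0.11 to 0.0086 and REL from -0.67 to 0.16, and the sum of REL with its overlapping RNA, chosen after seeing the data, was 0.028 without that replicate. Total count scaling moved the median of all genes by -0.079 and turned no member.

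Genes called higher over the whole table were 45 and lower 7. They were 14 and 0 with no filter, 82 and 14 with the stricter filter, 402 and 212 with DESeq2, 9 and 0 at an adjusted p under 0.01, and 93 and 19 at 0.1. With each library left out they ranged from 4 to 120 and from 0 to 28. Other target genes called higher were 3, and 0 with no filter or at 0.01, 10 with DESeq2, 5 at 0.1, and 0 to 6 with a library left out. Of the other inhibitors 1, ZC3H12A, was called higher with the stricter filter, DESeq2, the replicate block or at 0.1. The cause of these shifts was not tested.

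No label ties replicate numbers across the groups, so the main fit had no replicate term. Deviations of libraries with the same number correlated at 0.161, 0.059 and 0.087 over 19611 genes. Each library correlated best with its own number, a hint from the data and not from the design. With the replicate block 247 genes were called higher and 108 lower, 8 of them target genes called higher, and none of the 10 members (lowest adjusted p 0.089, NFKB2). Groups of 3 libraries and adjustment over 19611 genes both limit what can be called, and SEs of the members ran from 0.10 to 0.60 on the log2 scale.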

Other observations

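Among the other target genes, single libraries stood out and these were chosen after their values were seen. XIAP, an inhibitor of caspases, was at 12.3, 3.42 and 19.6 CPM with ethacrynic acid and at 12.7, 17.8 and 19.98 CPM with DMSO, with replicate 2 of ethacrynic acid far below the rest. The early response gene IER3 was at 11.97, 13.1 and 49.8 CPM with ethacrynic acid and at 7.96, 8.08 and 5.59 CPM with DMSO. The cyclin gene CCND1 was at 1.97, 1.85 and 16.8 CPM with ethacrynic acid and at 2.65, 2.14 and 2.16 CPM with DMSO. In both, the highest value was in replicate 3 of ethacrynic acid, in which the epithelial markers summed to 367 CPM, and their part in these values was not tested. None of these 3 genes passed in edgeR's quasi-likelihood test (adjusted p of 0.734 for XIAP, 0.321 for IER3 and 0.509 for CCND1).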
